A study of Mus musculus with 16 samples.

Results

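The comparison described here is the genotype by diet interaction in mouse inguinal white adipose tissue: the effect of losing Kmo on a high-fat diet (HFD) minus the same effect on chow, on the log2 scale. It equals the diet effect in knockout (KO) mice minus the diet effect in wild-type (WT) mice, and a value of 0 means that diet moved a gene by the same factor in both genotypes. Its members were all genes with enough reads to be tested, 16549 of the 55487 genes in the count table, and no gene was chosen by its value. The depot is subcutaneous fat of the groin, and its poly-A RNA was sequenced from males that were 6 to 7 months old. WT chow and WT HFD were wild-type littermates fed chow or the high-fat diet, and KO chow and KO HFD were littermates that lacked Kmo in the whole body, fed the same 2 diets. Each of the 4 groups held 4 libraries, each with its own animal code, and the knockout was not limited to fat. The composition of the diets, the feeding time and the design of the knockout allele are not given in the labels used here. Libraries held 13824404 to 16909361 counted read pairs.

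Kmo encodes kynurenine 3-monooxygenase, a mitochondrial enzyme that turns kynurenine, the first stable product of tryptophan breakdown, into 3-hydroxykynurenine on the way to NAD. Kynurenine also binds the aryl hydrocarbon receptor, and kynurenic acid signals through the receptor Gpr35, which has been linked to energy use in fat. Inguinal fat holds white adipocytes and, scattered among them, thermogenic beige adipocytes. On rich diets it lowers the making of fatty acids from sugar, enlarges its adipocytes and takes in macrophages. In RNA of whole tissue, fewer cells of a type and less RNA per cell cannot be told apart.

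No gene passed the edgeR quasi-likelihood test of the interaction at an adjusted p of 0.05 (0 of 16549, percent called 0, smallest adjusted p 1). DESeq2 and limma-voom called 0 genes as well. At an unadjusted p under 0.05 edgeR counted 187 genes, 1.13% of those tested, DESeq2 186 and limma-voom 290, where 5% would be reached with no difference. The edgeR count was 302 without WT chow replicate 4 and 305 without KO chow replicate 1. Of the 187 genes, 103 stood above 0 (0.622% of genes tested) and 84 below 0 (0.508%). Over all genes, 50.2% of interaction estimates were above 0 and the median was 0.0011.

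The intervals show how large a difference these libraries leave possible. The 95% interval of the interaction lay within 1 log2 unit of 0, a 2-fold difference between the diet effects, for 9948 genes (60.1%). Among the 9737 genes with a mean above 10 CPM (the usual scaling of counts to library size, here with TMM factors), 8572 (88.0%) had such an interval. The median half-width of the interval was 0.615 for the interaction, against 0.435 for the knockout effect on chow and 0.307 for the diet effect over both genotypes. An estimate above 1 or below -1 was seen for 535 genes (3.23%). In simulated counts the same fit recovered 74% of genes with a 4-fold interaction, 54% at 3-fold, 20% at 2-fold and 0% at 1.5-fold, 50 genes at each fold. In those counts 4.64% of the unchanged genes had an unadjusted p under 0.05, more than the 1.13% of the real table, so recovery in the real libraries may differ.

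No gene had all 4 KO libraries above all 4 WT libraries on 1 diet and all below them on the other (0 of 16549, 0%). On chow alone KO and WT libraries did not overlap for 92 genes (0.556%), and on HFD alone for 235 genes (1.42%). These counts describe order only and carry no test. With 4 libraries against 4, some genes separate by order alone, so separation of a gene on 1 diet is given as description.

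Kmo itself was read first, since it checks the labels. On chow it had 117, 236, 40 and 298 counts in the WT libraries against 2, 8, 3 and 3 in KO. On HFD the WT counts were 42, 215, 69 and 90 against 1, 2, 2 and 1 in KO. Genotypes did not overlap on either diet. The log2 fold change of KO against WT was -5.38 on chow and -5.95 on HFD, and the interaction was -0.56 (SE 1.13, 95% interval -2.97 to 1.84). It moved to 0.06 without WT HFD replicate 2 and to 0.04 without KO chow replicate 2. The difference between the diets was smaller than its error, and the few counts in KO libraries leave a wide range. In WT mice the diet effect on Kmo was -0.72 (SE 0.54), with overlapping groups. Kmo was highest in WT chow replicate 4 and WT HFD replicate 2, which also had the highest means of T cell markers in their groups, 5.25 and 3.05 log2 CPM. The part of lymphoid tissue in the level of Kmo was not tested.

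The 10 genes with the smallest p above 0 and the 10 below 0 are described next, among genes with a mean of at least 1 CPM in a group and leaving out predicted genes. All of them had an edgeR adjusted p of 1, so their values are estimates and none is a call. Above 0, meaning a higher KO effect on HFD than on chow, stood Fosb, Serpina1d, Ldha-ps2, Tnrc18, Elk1, Hcfc1, Ncoa1, Capn11, Ptprd and Cdyl. Below 0 stood Ripply3, H2afy2, Adh6b, Id1, Bok, Actn2, Smpd2, Smarcb1, Cmas and Gbp2. In all 20 the knockout effect on chow and that on HFD had opposite signs, which a choice by large interaction favours. None of the 20 changed sign in the settings run for it, which were 29 for each gene but Actn2, too low for the stricter filter on counts, with 28. The choice by small p in these same libraries favours steady signs too, so nothing is read from that.

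**Figure D1:**
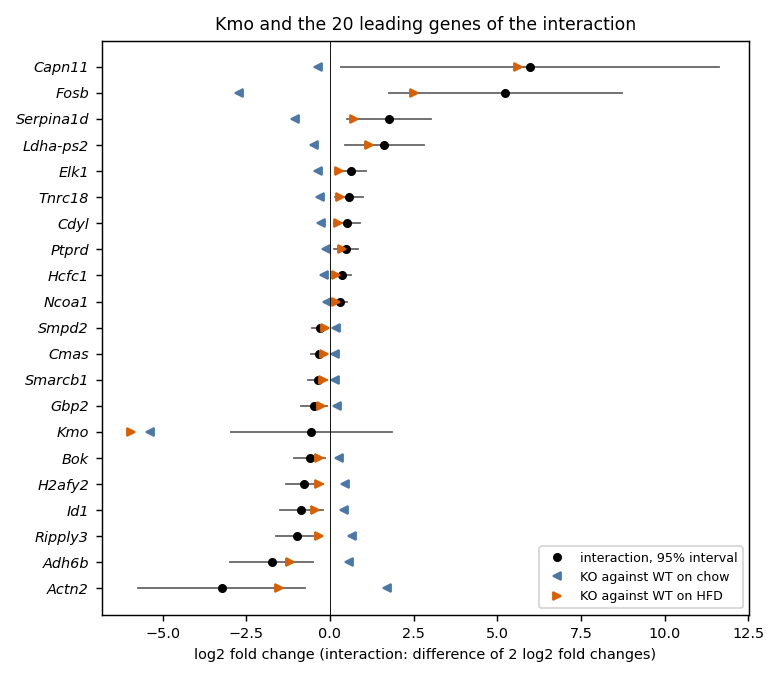
Interaction of Kmo and the 20 leading genes with its 95% interval (black point and bar), with the log2 fold change of KO against WT on chow (blue) and on HFD (orange) on the same axis. Fosb and Capn11 have the widest intervals above 0 and Actn2 below 0, while Ncoa1, Smpd2, Cmas and Hcfc1 lie within 0.40 log2 units of 0.

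Ncoa1 (chromosome 12, 4247362 to 4477182 in GRCm38), a coactivator of nuclear receptors, stood at 65.3, 75.0, 64.9 and 64.3 CPM in WT chow and 61.1, 66.6, 62.0 and 62.5 CPM in KO chow. On HFD it stood at 60.7, 65.9, 59.8 and 65.9 CPM in WT and 70.0, 71.5, 74.1 and 72.9 CPM in KO. On HFD all 4 KO libraries were above all 4 WT libraries, and on chow the groups overlapped. The interaction of Ncoa1 was 0.29 (SE 0.10, unadjusted edgeR p 0.0116).

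Hcfc1 (X chromosome, 73942792 to 73966357), a cell-cycle regulator that binds chromatin-modifying enzymes, showed a similar arrangement. It stood at 86.6, 101, 99.5 and 98.8 CPM in WT chow, 93.2, 73.5, 89.5 and 86.2 in KO chow, 101, 117, 99.8 and 96.3 in WT HFD and 117, 114, 122 and 120 in KO HFD. KO HFD libraries were the highest as a group, but WT HFD replicate 2 lay within their range. Its interaction was 0.36 (SE 0.13). Tnrc18 (0.58, SE 0.20), Elk1, a transcription factor that drives immediate early genes (0.63, SE 0.21), and Cdyl, a chromatin reader (0.51, SE 0.19), had estimates of the same kind. In each of these 3 genes the KO and WT ranges overlapped on at least 1 diet. Ptprd, a receptor phosphatase, stood at 77.0, 75.8, 76.0 and 87.7 CPM in WT HFD and 88.5, 106, 103 and 105 CPM in KO HFD. Those groups did not overlap, while the chow groups did, and the interaction was 0.48 (SE 0.17).

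Genes with low or uncertain signal also stood above 0. Serpina1d (0.19 to 2.19 CPM over all libraries), an alpha-1-antitrypsin gene, has near-identical family members among which reads can be split, and Ldha-ps2 is a pseudogene of lactate dehydrogenase A. Their interactions of 1.76 and 1.63 are uncertain for that reason. Capn11, a calpain, had 64 counts over the WT chow libraries, 51 over KO chow, 2 over WT HFD and 121 over KO HFD. The KO HFD to WT HFD ratio was 63.1 with a counting interval of 17.1 to 527, which covers counting error only. KO HFD replicate 1 held 2 counts and the other KO HFD libraries 39, 55 and 25. On chow, WT replicate 4 and KO replicate 4 held none. The interaction estimate of 5.99 (SE 2.65) rests on the 2 counts of WT HFD, both in replicate 4. Without that library WT HFD held only counts of 0, and the estimate was 8.3.

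Below 0, Ripply3 (chromosome 16, 94328420 to 94336935), a transcriptional repressor of development, had the smallest p of the 20, an unadjusted edgeR p of 0.00552. It stood at 2.02, 2.54, 2.60 and 2.62 CPM in WT chow and 3.77, 3.39, 4.23 and 4.13 in KO chow. On HFD it stood at 3.88, 3.32, 3.06 and 2.83 CPM in WT and 1.84, 2.80, 3.56 and 2.30 in KO. All KO libraries lay above WT on chow, and on HFD only KO replicate 3 reached into the WT range. The knockout effect was 0.67 on chow and -0.31 on HFD, and the interaction -0.98 (SE 0.30, 95% interval -1.63 to -0.33).

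Id1 (chromosome 2, 152736251 to 152737410), an inhibitor of DNA-binding that responds to bone morphogenetic proteins, stood at 26.6, 16.9, 25.6 and 23.0 CPM in WT chow and 26.0, 32.5, 26.4 and 37.0 in KO chow. On HFD it stood at 26.8, 13.8, 17 and 14.7 CPM in WT and 11.2, 12.3, 17.1 and 11.9 in KO. The groups overlapped on both diets, and the interaction was -0.86 (SE 0.30). The histone variant gene H2afy2 (-0.77, SE 0.26), the Bcl-2 family member Bok (-0.61, SE 0.21) and the chromatin remodelling subunit Smarcb1 (-0.37, SE 0.13) had smaller estimates. Smarcb1 in KO HFD stood at 42.8, 43.8, 44.1 and 44.1 CPM, below all 4 WT HFD libraries at 47.6, 52.3, 50.3 and 51.1 CPM, while the chow ranges overlapped. Smpd2, a sphingomyelinase, and Cmas, which activates sialic acid, stood at -0.31 and -0.33.

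Adh6b, an alcohol dehydrogenase, stood at 1.56, 2.42, 1.60 and 1.47 CPM in WT chow and 1.95, 2.98, 1.93 and 3.5 in KO chow. On HFD it reached 5.85, 6.06, 12.6 and 3.02 CPM in WT and 1.27, 2.87, 4.42 and 3.49 in KO. Its interaction was -1.74 (SE 0.59). Actn2, a muscle alpha-actinin, stood at 3.38 CPM in KO chow replicate 4 and at most at 1.21 CPM in every other library, and its interaction was -3.24 (SE 1.17), or -2.29 without that library. The skeletal muscle markers of that library averaged 5.52 log2 CPM, against 0.76 to 5.28 in the other KO chow libraries. These markers were higher still in WT chow replicate 3 (7.36) and WT HFD replicate 3 (6.42), where Actn2 stood at 0.20 and 0.47 CPM. The part of muscle in the value of Actn2 was not tested.

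**Figure D2:**
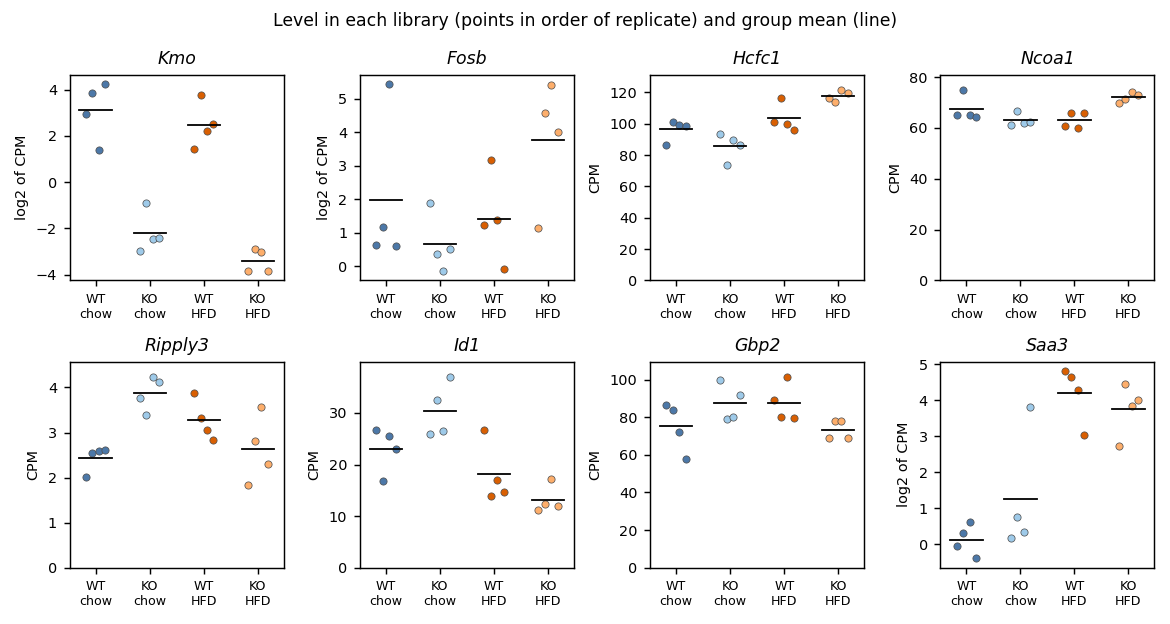
Level of 8 genes in each library, with the 4 points of a group in order of replicate and a line at the group mean. Hcfc1, Ncoa1, Ripply3, Id1 and Gbp2 are in CPM from 0, and Kmo, Fosb and Saa3 as log2 of CPM. WT chow replicate 3 is the highest WT chow library for Fosb, and KO chow replicate 4 the highest KO chow library for Saa3.

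Fosb had one of the largest estimates, and immediate early genes as a group were read next. These genes, such as Fos, Fosb, Egr1 and Nr4a1, encode transcription factors switched on within minutes of a stimulus, through elements bound by CREB and by serum response factor. Of the 27 genes of the immediate early and heat shock list 26 were tested, 19 stood above 0 and 7 below, and 0 were called. The median interaction was 0.38, against 0.0011 for all genes, and 2 members, Fosb and Nr4a1, had an unadjusted p under 0.05, both above 0 (0.622% of all genes did). Without WT chow replicate 3 the median was -0.0038.

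To show the sequence upstream of the 2 members with the smallest p and of Fos, the 250 bases before the RefSeq start of each gene (GRCm38.p6) are printed 5′ to 3′ on the gene's strand. The 3 genes were chosen after their values were seen. Capitals mark each TGACG, the core of the CREB element, read on either strand (CGTCA on the other). Fosb lies at chr7:19310046-19310295 on the minus strand, Nr4a1 at chr15:101266596-101266845 on the plus strand and Fos at chr12:85473640-85473889 on the plus strand.
Fosb: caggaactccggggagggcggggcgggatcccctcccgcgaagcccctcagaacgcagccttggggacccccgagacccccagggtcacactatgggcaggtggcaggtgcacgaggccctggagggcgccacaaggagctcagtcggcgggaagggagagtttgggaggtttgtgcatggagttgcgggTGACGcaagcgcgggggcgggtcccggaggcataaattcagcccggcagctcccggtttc
Nr4a1: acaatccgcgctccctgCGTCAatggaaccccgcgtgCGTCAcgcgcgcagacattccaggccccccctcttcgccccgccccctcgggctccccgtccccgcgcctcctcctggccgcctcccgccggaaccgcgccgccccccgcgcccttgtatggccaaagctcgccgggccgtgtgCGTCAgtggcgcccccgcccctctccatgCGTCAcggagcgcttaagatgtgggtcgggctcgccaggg
Fos: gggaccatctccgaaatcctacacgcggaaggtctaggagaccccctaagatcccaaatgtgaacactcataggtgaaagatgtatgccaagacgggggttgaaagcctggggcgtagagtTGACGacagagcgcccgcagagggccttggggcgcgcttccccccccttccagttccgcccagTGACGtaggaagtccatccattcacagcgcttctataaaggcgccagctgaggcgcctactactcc
The window of Fosb held 1 TGACG, that of Nr4a1 4 and that of Fos 2, and 17.8% of the 32851 RefSeq promoter windows of the same length held at least 1. The full palindrome TGACGTCA, which contains TGACG on both strands, was in none of the 3 windows and in 1.55% of all. The exact CArG box (CCWWWWWWGG, W being A or T), the element of serum response factor, was in none of the 3 windows and in 1.47% of all. Inexact matches and sites further upstream were not searched, so these genes may still have such elements. A match is a run of letters and was not tested for binding.

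Fosb (chromosome 7, 19302696 to 19310051) stood at 1.56, 2.23, 43.6 and 1.53 CPM in WT chow and 3.71, 1.29, 0.907 and 1.44 CPM in KO chow. HFD values were 2.35, 9, 2.59 and 0.945 CPM in WT and 2.19, 24.1, 42.2 and 16.2 CPM in KO. WT chow replicate 3 stood far above the other WT chow libraries, and 3 of 4 KO HFD libraries lay above all WT HFD libraries. The interaction was 5.24 (SE 1.62, unadjusted edgeR p 0.00823) and 2.46 without WT chow replicate 3.

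Egr1 and Nr4a1 were also highest in WT chow replicate 3, without the high KO HFD values of Fosb. Egr1 stood at 26.5, 27.2, 607 and 26.8 CPM in WT chow and between 3.46 and 56.5 CPM in all other groups. Its interaction was 2.96 (SE 1.42), or 0.28 without WT chow replicate 3. Nr4a1, an orphan nuclear receptor, stood at 8.08, 12.5, 45.4 and 11.2 CPM in WT chow and at 10.5, 14, 15.2 and 17 CPM in KO HFD, against 10.6, 13.6, 9.91 and 5.17 CPM in WT HFD. Those HFD groups overlapped, and its interaction was 1.59 (SE 0.71), or 0.73 without WT chow replicate 3. Fos and Egr2 stood at 1.56 and 2.33, and Jun, the partner of Fos, at -0.17. WT chow replicate 3 also had the highest skeletal muscle score of all libraries, 7.36 log2 CPM, whose part in these values was not tested.

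The second question was whether genes that respond to diet do so to the same extent without Kmo. They were chosen by the diet effect over both genotypes, a contrast whose estimate is nearly uncorrelated with that of the interaction in this balanced design. It called 5471 genes (33.1% of those tested), 2827 higher on HFD (17.1%) and 2644 lower (16%). With upper-quartile factors 2309 of 5607 calls were higher (41.2%, against 51.7% of the calls with TMM factors). Of the called genes 5330 had a mean of at least 1 CPM in a group, 2804 of them rising and 2526 falling.

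For 3847 of these 5330 genes (72.2%) the interval of the interaction lay within a 2-fold difference, against 60.1% of all genes tested. The call and the interval share each gene's spread, so the choice itself favours narrow intervals and nothing is read from that difference. An unadjusted p under 0.05 was found for 67 of them (1.26%, against 1.13% of all genes). The median size of the diet effect was 0.513 in WT and 0.517 in KO, on the log2 scale. The effect was larger in KO for 2651 of 5330 genes (49.7%). Among rising genes 1401 of 2804 rose more in KO, and among falling genes 1250 of 2526 fell more, by estimates that were not called. Signs agreed for 5328 genes, which the choice by the pooled effect largely fixes. Over all 16549 genes the diet effects of WT and KO, which share no library, had a Pearson r of 0.822 and a Spearman rho of 0.807, given as a description.

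**Figure D3:**
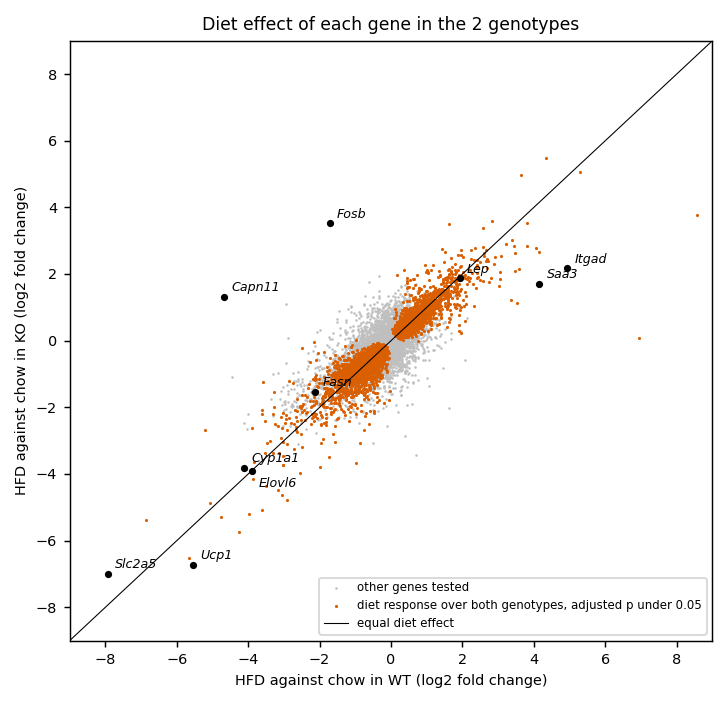
Diet effect (HFD against chow, log2 fold change) of each of the 16549 genes tested in WT (x axis) and in KO (y axis), with the 5471 genes called over both genotypes in orange and the line of equal effects. Elovl6 and Cyp1a1 lie far down near the line and Lep above 0 on it, with Slc2a5 and Ucp1 further down and further from it. Fosb and Capn11 lie off the line, as do Saa3 and Itgad, which were called over both genotypes.

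The genes with the firmest diet responses, by smallest p of the pooled diet effect, were read next. That choice favours genes with a narrow spread, so small interactions among them are not read as equal responses. Slc5a6, the transporter of biotin and pantothenate, fell from 88.6, 78.4, 66.3 and 84.7 CPM in WT chow to 25, 18.3, 22.7 and 21.5 in WT HFD. In KO mice it fell from 59.6, 83.6, 74.7 and 66.5 CPM to 25.7, 21.1, 23.1 and 26.2 CPM. No chow library overlapped an HFD library, the edgeR adjusted p of the pooled diet effect was 8.62e-08, and the interaction was 0.30 (95% interval -0.09 to 0.68). Ddo, which oxidises D-aspartate, Hsd11b1, which regenerates glucocorticoid, and Bhlhe40, a clock repressor, fell in both genotypes. Their interactions were -0.24 (95% interval -1.04 to 0.56), 0.24 (-0.45 to 0.93) and 0.03 (-0.76 to 0.83). P2rx5, an ATP-gated channel of brown and beige adipocytes, and Tbc1d24 stood at -0.23 and 0.26.

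Among rising genes Eln, which encodes elastin, stood at 55.6, 73.4, 62.8 and 44.9 CPM in WT chow and 195, 214, 263 and 166 in WT HFD. In KO mice it stood at 76.4, 45.2, 42.8 and 80.5 CPM on chow and 174, 231, 206 and 183 on HFD. Every HFD library was above every chow library, and the interaction was -0.13 (95% interval -0.77 to 0.51). Dennd4a, an exchange factor for Rab GTPases, had a diet effect of 0.72 in WT and 1.01 in KO, and its interaction of 0.30 (SE 0.14) had an unadjusted edgeR p of 0.0457. Ankrd50, Afap1l2 and the nuclear importer Ipo9 rose too, with interactions of 0.17, -0.45 (95% interval -1.14 to 0.24) and 0.06.

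Lep, which encodes leptin, stood at 1217, 1220, 1931 and 622 CPM in WT chow and 4991, 4944, 4942 and 4097 in WT HFD. In KO mice it stood at 853, 1060, 844 and 2410 CPM on chow and 2963, 5677, 6255 and 4158 on HFD. Diet effects of 1.93 (WT) and 1.88 (KO) left an interaction of -0.04 (95% interval -1.13 to 1.05). It was 0.45 without KO chow replicate 4, the library with the highest Lep on chow.

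Fatty acid synthesis was read next. The list of de novo lipogenesis covers sugar uptake, the making of acetyl-CoA and NADPH, and the building, elongation and desaturation of fatty acids. Diet lowered 18 of its 24 members over both genotypes and raised 1 (16% of all genes were lower). In the interaction 19 members stood above 0 and 5 below (50.2% of all genes above), 0 were called, 0 had an unadjusted p under 0.05, and the median was 0.25. The median diet effect was -0.93 in WT and -0.66 in KO.

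Fasn, the fatty acid synthase, stood at 10570, 9828, 15030 and 14330 CPM in WT chow and 13620, 13620, 9137 and 5013 in KO chow. In HFD libraries it was at 2068, 3223, 3735 and 2323 CPM in WT and 2183, 4746, 3300 and 4079 in KO. All HFD libraries lay below all chow libraries, the genotypes overlapped on both diets, and the interaction was 0.60 (95% interval -0.35 to 1.55). Elovl6, the elongase of palmitate, fell by 3.90 on the log2 scale in WT and by 3.91 in KO, with an interaction of -0.0025 (95% interval -1.32 to 1.31). Slc2a5, the fructose transporter, fell by 7.93 in WT and by 7.00 in KO, to at most 0.283 CPM in any HFD library, and the interaction of 0.94 had an interval of -2.49 to 4.37.

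Slc2a4, the insulin-responsive glucose transporter, had the smallest p of the list. It stood at 284, 269, 396 and 320 CPM in WT chow, 290, 301, 255 and 252 in KO chow, 178, 140, 135 and 196 in WT HFD and 165, 193, 179 and 211 in KO HFD. Its interaction was 0.41 (95% interval -0.02 to 0.84). Scd1, the stearoyl-CoA desaturase, stood at 0.47, Fads1, a polyunsaturated fatty acid desaturase, at 0.42, Thrsp, a lipogenic regulator, at 0.60 and Acly, ATP citrate lyase, at 0.51. KO chow replicate 4 was the lowest chow library of the list, with a mean of 8.11 log2 CPM against 8.63 to 9.26 in the others. That library gave Fasn and Elovl6 their lowest chow values, 5013 and 152 CPM. The median of the list was 0.14 to 0.42 when each library was left out in turn.

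**Figure D4:**
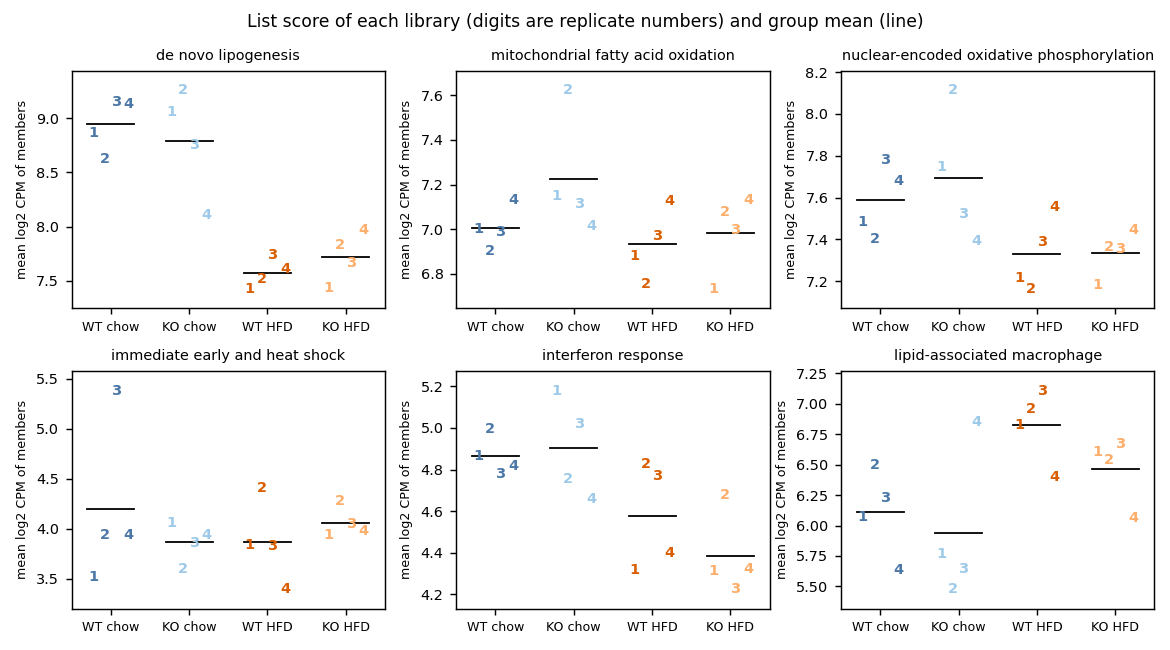
Mean log2 CPM of the members of 6 gene lists in each library, with digits for the replicate number and a line at the group mean. KO chow replicate 2 is the highest library for fatty acid oxidation and oxidative phosphorylation, WT chow replicate 3 for immediate early genes, and KO chow replicate 4 the highest chow library for lipid-associated macrophage genes.

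Mitochondrial fatty acid oxidation burns what lipogenesis makes. Of its 24 members 4 stood above 0 in the interaction and 20 below, 0 were called and 0 had an unadjusted p under 0.05, with a median of -0.19. The median knockout effect was 0.20 on chow and -0.01 on HFD. Slc25a20, the carnitine carrier of the inner membrane, stood at 78.3, 69.3, 81.9 and 100 CPM in WT chow and 91.9, 144, 100 and 90.5 in KO chow. The HFD libraries held 104, 93.9, 118 and 112 CPM in WT and 76.5, 117, 108 and 113 in KO, with overlap on both diets and an interaction of -0.42 (SE 0.23). Acadm, the medium-chain dehydrogenase, was at -0.36 and Hadhb, of the trifunctional protein, at -0.50. KO chow replicate 2 held the highest value of the list, 7.62 log2 CPM against 7.01 to 7.15 in the other KO chow libraries. Without it the median was -0.07, and among the 12 libraries merged over sequencing lanes it was 0.03.

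The 32 nuclear-encoded genes of oxidative phosphorylation had 4 members above 0 and 28 below, 0 called and a median of -0.16. Diet lowered 18 of the 32 over both genotypes and raised 0, against 16% lowered and 17.1% raised among all genes. Atp5o, a subunit of the ATP synthase stalk, had the smallest p, with an interaction of -0.36 (SE 0.17), and Atp5b, the most abundant catalytic subunit, stood at -0.12. The same KO chow replicate 2 was highest here too, at 8.11 log2 CPM against 7.39 to 7.75 in the others of its group. The median was 0.02 without it and 0.13 among libraries merged over lanes, so the side of 0 on which most members stood rests on that library and on which libraries are used.

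The 13 transcripts of the mitochondrial genome stood the other way, 11 above 0 and 2 below, with a median of 0.09 and 0 called. Diet lowered 11 of the 13 over both genotypes (16% of all genes). The abundant mt-Co1 and mt-Cytb, a cytochrome oxidase subunit and cytochrome b, were at -0.11 and 0.01, and the 2 largest estimates belonged to the low mt-Atp8 (0.90, SE 0.61) and mt-Nd4l (0.82, SE 0.60). These 2 genes overlap mt-Atp6 and mt-Nd4 on the genome, so their reads cannot be fully assigned. The median was -0.04 without WT chow replicate 4, -0.0053 without KO chow replicate 4 and 0.28 without KO chow replicate 1.

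Thermogenic genes had 6 of 18 tested members above 0 and 12 below, with a median of -0.19 and 0 called. The median was -0.52 without WT chow replicate 4, 0.04 without KO chow replicate 2 and 0.13 among libraries merged over lanes. Diet lowered 9 of the 18 (16% of all genes) and raised 0 (17.1%). Ucp1, which uncouples respiration to make heat, stood at 26.7, 27.7, 10.5 and 222 CPM in WT chow and 141, 172, 73.6 and 32.9 in KO chow. On HFD all libraries stood between 0.572 and 2.99 CPM. The chow values spread over a wide range within each genotype, and the interaction was -1.18 (95% interval -4.18 to 1.82). It was -2.91 without WT chow replicate 4 and 0.23 among libraries merged over lanes. Cidea, a droplet protein of beige cells, was at -0.28.

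Lipid storage and adipocyte identity were spread about 0. Of 26 genes of triglyceride synthesis, droplets and lipolysis 14 stood above 0 and 12 below, with a median of 0.02, and 21 of the 26 intervals lay within a 2-fold difference. Plin1, the main droplet coat of white adipocytes, was at 0.22 (95% interval -0.22 to 0.67), and Plin5, which ties droplets to mitochondria, at -0.71 (SE 0.47), or -0.01 among libraries merged over lanes. Adipocyte identity genes and adipokines had 8 of 16 above 0 and a median of 0.02, or 0.22 without KO chow replicate 4, and 5 of the 16 intervals lay within a 2-fold difference. Of 18 genes of insulin signalling 11 stood above 0, with a median of 0.06, and 16 intervals lay within a 2-fold difference, among them that of Akt2 at -0.01.

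The kynurenine pathway around Kmo was mostly low. Of its 20 listed genes of tryptophan breakdown and NAD synthesis 16 were tested, 7 above 0 and 9 below, with a median of -0.03 and 0 called. The NAD salvage gene Nampt stood at 141, 117, 156 and 140 CPM in WT chow, 123, 240, 157 and 126 in KO chow, 71.8, 81.9, 101 and 99.4 in WT HFD and 89.2, 97.6, 86.7 and 98.5 in KO HFD. It fell on HFD over both genotypes, with an interaction of -0.15 (95% interval -0.69 to 0.39). That value was 0.10 without KO chow replicate 2, its highest library, and 0.14 among libraries merged over lanes. Nnmt, which consumes nicotinamide, rose on HFD over both genotypes, with an interaction of -0.26 (SE 0.33). Nmnat1, of nuclear NAD synthesis, was at -0.30.

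Haao, which acts downstream of Kmo, stood at 6.84, 11.3, 1.60 and 26.7 CPM in WT chow and 13.8, 2.71, 19.8 and 2.25 in KO chow. Under HFD the values were 1.40, 12.5, 2.06 and 0.693 CPM in WT and 18.1, 1.07, 1.23 and 1.25 in KO. In each group the library with the highest Haao was the one with the highest mean of T cell markers, with means of 5.25 (WT chow replicate 4), 5.12 (KO chow replicate 3), 3.05 (WT HFD replicate 2) and 3.84 (KO HFD replicate 1) on the log2 CPM scale. Its interaction was 0.64 (SE 1.67). The part of lymphoid tissue in the level of Haao was not tested.

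Receptors and carriers of kynurenine had 9 of 13 members above 0, with a median of 0.06. Ahrr, the repressor of the aryl hydrocarbon receptor, was at -0.76 (SE 0.57) on levels of 0.209 to 1.05 CPM. Cyp1a1, a classic target of that receptor, fell on HFD over both genotypes from 0.434 to 2.74 CPM on chow to at most 0.212 CPM. The fall was 4.12 on the log2 scale in WT by the fit and 3.81 in KO, with an interaction of 0.31 (95% interval -1.97 to 2.59). Slc3a2, the heavy chain of the amino acid carriers that move kynurenine, rose on HFD and stood at -0.09 in the interaction. Cyp2f2, another cytochrome P450 lowered by diet, was at 0.18, or 1.67 without WT HFD replicate 4.

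Interferon response genes had 3 of 24 members above 0 and 21 below (50.2% of all genes above), a median of -0.26 and 0 called. Only 2 members had an unadjusted p under 0.05, and both stood below 0 (0.508% of all genes did). Over both genotypes diet lowered 13 of the 24 (16% of all genes) and raised 0 (17.1%). Gbp2, an interferon-induced GTPase, stood at 86.5, 83.8, 72.4 and 58.0 CPM in WT chow, 99.7, 79.3, 80.1 and 92.0 in KO chow, 89.2, 80.4, 101 and 79.7 in WT HFD and 69.0, 77.9, 78 and 68.8 in KO HFD. On HFD all KO libraries lay below all WT libraries, on chow the groups overlapped, and the interaction was -0.48 (SE 0.18). Reads of the related Gbp genes may be split, which leaves this value uncertain.

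Cxcl9, a chemokine that draws T cells, stood at 48.2, 33.7, 27.8 and 32.1 CPM in WT chow and 37.8, 37.1, 52.7 and 41.4 in KO chow. HFD libraries stood at 38.3, 33.1, 38.7 and 19 CPM in WT and 20.3, 22.6, 26.5 and 24.9 in KO. Only WT HFD replicate 4 kept the HFD groups from separating, and the interaction was -0.71 (SE 0.30). Isg15, a ubiquitin-like protein induced by interferon, was at -0.48. The median of the list stayed below 0 in every setting tried and was -0.10 without KO chow replicate 1, which had the highest list mean, 5.18 log2 CPM.

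Inflammatory and macrophage genes had medians below 0, and each of the 3 medians changed side when a single library was left out. Of 22 cytokines and chemokines 19 were tested, 7 above 0 and 12 below, with a median of -0.30, or 0.11 without WT HFD replicate 2. Saa3, an acute-phase protein made by fat, stood at 0.977, 1.24, 1.53 and 0.766 CPM in WT chow and 1.13, 1.70, 1.27 and 13.9 in KO chow. With HFD it was at 28.0, 25, 19.6 and 8.12 CPM in WT and 6.66, 21.8, 14.4 and 16 in KO. KO chow replicate 4 alone of the chow libraries reached the HFD range. The interaction of -2.45 (SE 1.03, unadjusted edgeR p 0.0326) was -0.72 without it.

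Itgad, an integrin of fat macrophages, repeated this arrangement. It stood at 1.04, 3.10, 2.73 and 0.830 CPM in WT chow and 1.07, 0.271, 0.363 and 27.9 in KO chow, then at 55.1, 77.2, 73.7 and 31.2 in WT HFD and 15, 53.1, 45 and 20.4 in KO HFD. Its interaction was -2.77 (SE 1.51) and turned to 0.91 without KO chow replicate 4. Lipid-associated macrophage genes, which mark macrophages laden with fat, had 4 of 17 above 0, with a median of -0.23 that turned to 0.15 without the same library. That library also had the highest Lep and the lowest Elovl6 and Slc2a5 (2.25 CPM, against 20.1 to 32.1) of the KO chow group. General macrophage markers had 7 of 17 above 0 and a median of -0.11, or 0.21 without KO chow replicate 1 and 0.03 without WT chow replicate 3, with Itgam at -0.57 (SE 0.31) and Lyz2 at -0.16.

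Stress, sterol and matrix genes complete the pathways. Diet raised 13 of 22 genes of the endoplasmic reticulum stress and amino acid response over both genotypes (17.1% of all genes rose). Of the 22, 9 stood above 0 in the interaction and 13 below, with a median of -0.12, and all 22 intervals lay within a 2-fold difference. Hspa5, the main chaperone of the compartment, stood at 486, 642, 763 and 649 CPM in WT HFD and 442, 687, 544 and 599 CPM in KO HFD, from 269 to 386 CPM on chow. Its interaction was -0.22 (95% interval -0.72 to 0.28). Hsp90b1 and Dnajb9, other chaperones there, were at -0.33 and -0.35.

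Cholesterol synthesis had 17 of 19 tested members above 0 and 2 below, with a median of 0.15 that turned to -0.13 without WT chow replicate 3. Hmgcs1, the first committed enzyme, rose on HFD over both genotypes and stood at -0.33, and Srebf2, the regulator, at 0.34. Extracellular matrix genes rose in 18 of 26 cases over both genotypes (17.1% of all genes), with a median diet effect of 0.90 in WT and 0.82 in KO. Their interaction was above 0 for 11 and below for 15, with a median of -0.02, or 0.18 without KO chow replicate 4. Col3a1, a fibrillar collagen, was at 0.01 and Sparc, a collagen-binding protein, at -0.09. Hypoxia genes had 2 of 16 above 0 and a median of -0.16.

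Clock genes, which keep daily time, all passed the pooled diet test, since diet raised 6 of 18 (17.1% of all genes) and lowered 12 (16%) over both genotypes. The median diet effect was -1.59 in WT and -1.65 in KO. In the interaction 10 stood above 0 and 8 below, with a median of 0.02 and 0 called, but only 6 of the 18 intervals lay within a 2-fold difference. Tef and Nr1d1, both clock output or repressor genes, were at -0.04 and 0.09. Both had their highest HFD values in WT HFD replicate 1 and KO HFD replicate 1, 171 and 147 CPM for Tef against 63.7 to 92.6 in the other HFD libraries. Without WT HFD replicate 1 Tef was at 0.42, Nr1d1 at 0.87 and the median of the list at 0.21, and without KO HFD replicate 1 the median was -0.16. The labels give no hour of collection, whose part was not tested. Glucocorticoid response genes had 6 of 14 above 0 and a median of -0.08. Pdk4, which spares glucose by blocking pyruvate dehydrogenase, stood at 177, 139, 106 and 220 CPM in WT chow and 300, 432, 266 and 117 in KO chow. The HFD libraries ran from 113 to 219 CPM in WT and from 102.1 to 160 in KO, with overlap on both diets. The interaction of Pdk4 was -1.06 (SE 0.47, unadjusted edgeR p 0.0429).

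**Figure D5:**
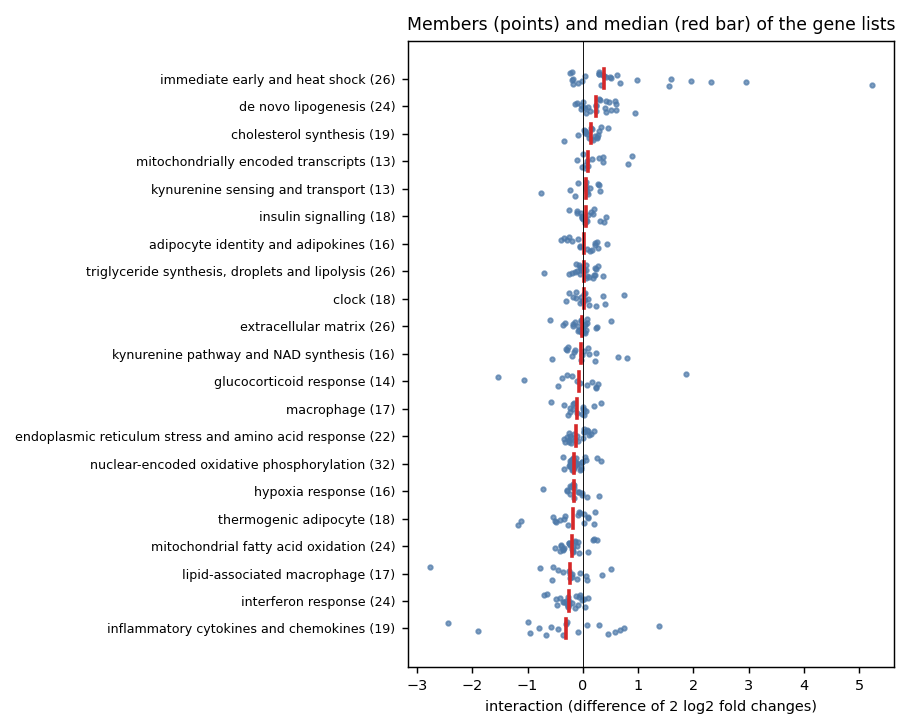
Interaction of each tested member (points) of 21 gene lists, with the number tested in brackets and a red bar at the median. Medians run from -0.30 for inflammatory cytokines and chemokines to 0.38 for immediate early and heat shock genes, and most members lie within 1 log2 unit of 0.

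Other cell types in the samples were checked last. Adipocyte markers averaged 10.4 to 11.4 log2 CPM in all libraries, as the tissue label states, with 3 of 7 above 0 in the interaction and a median of -0.04. T cell and B cell markers stood above 0 for all 12 and all 12 members, with medians of 0.67 and 0.40, and 0 were called. The 2 lists together averaged from -0.30 to 5.95 log2 CPM, and without KO HFD replicate 1 their medians were -1.73 and -3.33. Skeletal muscle markers averaged 0.76 to 7.36 log2 CPM, with 2 of 16 above 0 and a median of -0.23, which was -2.46 without WT chow replicate 3 and 0.70 without WT HFD replicate 3. Blk, a B cell kinase, was at 24.7 CPM in KO HFD replicate 1 and at most at 0.267 CPM in the other KO HFD libraries. Myh4, a fast muscle myosin, ran from 1.63 to 1602 CPM.

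Erythrocyte markers stood below 0 for all 5 members, with Hbb-bs, a beta globin, at -0.69 and a median of -0.46, which was -0.72 without WT chow replicate 3 and -0.24 without WT chow replicate 4. Endothelial markers had 2 of 13 above 0, with Pecam1 at -0.15 and a median of -0.15, which was -0.35 without KO HFD replicate 3 and -0.0046 without KO chow replicate 4. Adipose progenitor markers had 5 of 10 above 0 and a median of -0.01, or -0.37 without WT chow replicate 2. Mast cell markers (4 of 6 above 0), Schwann cell markers (3 of 7) and melanocyte markers (2 of 4) had medians of 0.08, -0.27 and 0.14. Of 10 epithelial and 6 mammary epithelium markers 4 and 1 had enough reads to test, with medians of 0.14 and 0.46. No member of any marker list was called, and fits with the lymphoid score, the muscle score or both as covariates called 0 genes.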

How the data were processed

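The tissue gave poly-A RNA for a stranded, paired-end kit, according to the labels. Alignment used STAR 2.7.3a and GRCm38, as the submitters' processing notes list. Counts per gene are deposited as the authors' featureCounts 2.0.3 output against Ensembl 102, not normalised. Per the file headers they were counted in pairs and blind to strand, so strand did not separate reads of overlapping and antisense genes. Column names show 12 libraries joined from several lanes and 4 from 1 lane (WT chow replicate 2, WT HFD replicates 3 and 4, KO HFD replicate 1). Symbols matched for 55141 of 55487 gene IDs.

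Counts were analysed in R 4.3.3 with edgeR 4.0.16 (filterByExpr, TMM, robust glmQLFit on 4 group means, glmQLFTest), adjusted by Benjamini and Hochberg over 16549 genes. limma 3.58.1 and DESeq2 1.42.0 were alternatives. Intervals are 95% Wald intervals, and log2 CPM used a prior count of 2. Named genes are Kmo, the 10 leading genes on each side, up to 4 members per list (2 by p, 2 by CPM), 6 rising and 6 falling diet genes and 10 set diet genes. Some genes that the rule names are not reported here. Acly, Arntl, Dbp, Egr2, Errfi1, Fos, Haao, Hadhb, Isg15 and Thrsp fall outside that rule and were named after their values were seen. Members and the 33 lists were chosen with earlier results of these data known. The fit was tested on simulated counts. The replicate numbers did not pair the libraries. P-values set each estimate against the spread between libraries within groups. The lowest chi-square per gene between libraries of a group was 10.1, so none was a repeat deposit of another in its group. Libraries of different groups were not compared in this way.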

Additional observations from a re-analysis of the deposited data

Results flagged for a closer look

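Each library was set against the other 3 of its group for the genes and lists named above, 476 groups in all, and marked where its gap to the nearest library took most of the group's range. This marked 39 groups (8.19%), where chance marks about 1 in 20 of independent groups. The groups here share the same libraries and many genes were chosen by their values, so no excess is read from that share. Values are log2 CPM, or mean log2 CPM for a list.

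KO HFD replicate 1 was marked 8 times, high for T cell markers (3.84, others at most 0.112), Blk (4.63, others at most -1.34) and Itgam (3.67), and low for cholesterol synthesis (5.21), Ptprd (6.47), Dnajb9 (5.35) and Nmnat1 (3.45). Its Cyp1a1 was high at -1.55, on few counts. WT chow replicate 3 was high for Fosb (5.45), Egr1 (9.25, others at most 4.77), Egr2 (5.71), and low for mast cell markers (3.44, others 4.03 to 4.11). KO chow replicate 4 was high for Saa3 (3.82, others at most 0.868) and Slc3a2 (6.94), and low for Cyp2f2 (5.68), Ahrr (-0.406) and Tbc1d24 (4.44).

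WT HFD replicate 4 was high for Ptprd (6.46), Hsd11b1 (6.67) and Capn11 (-1.97, on 2 counts), and low for Lep (12) and Pecam1 (7.06). WT HFD replicate 1 was high for Tef (7.42), and low for Elovl6 (4.68) and Col3a1 (11.2). KO chow replicate 2 was high for P2rx5 (4.85) and the glucocorticoid list (6.5), KO chow replicate 1 for the macrophage list (5.80), and KO chow replicate 3 low for erythrocyte markers (2.38). WT chow replicate 1 was low for Hcfc1 (6.44) and Ripply3 (1.10). WT chow replicate 2 was high for Ncoa1 (6.23) and Adh6b (1.35). WT chow replicate 4 was high for Slc2a5 (5.39) and low for Sparc (10.9). KO HFD replicate 2 was high for Cmas (5.07) and low for Actn2 (-2.95), KO HFD replicate 3 high for Pecam1 (8.02) and KO HFD replicate 4 high for Hsd11b1 (6.79).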

How the results depend on the processing

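In all 29 alternatives the interaction called 0 genes, with edgeR, DESeq2 and limma-voom alike. The number of genes with an unadjusted p under 0.05, 187 in the report, was 290 with limma-voom, 656 with no filter on low counts (33410 genes), 304 with the lymphoid score as a covariate, 359 with both scores, and 152 to 305 when each library was left out in turn. Diet calls, 5471 in the report, were 4505 to 6041 with a library left out. Diet responders with an interaction interval within a 2-fold difference, 3847 in the report, numbered 2471 among libraries merged over lanes and 3067 to 3925 with a library left out. Since no interaction was called, a gene value counted as moved only if it changed side of 0 and shifted by more than 1 SE. By that rule 28 gene values moved and 4288 did not. A list median counted as moved when it shifted by more than the scaled median absolute deviation of its members, on either side. Of the medians 132 moved and 825 did not, while 253 gene values and 111 medians changed side. The mammary list had 1 tested member, so any shift of its median counted. The diet responses of the 12 firmest and 10 set diet genes were refitted (638 values), and none of those called was lost or changed side; those of other named genes were not refitted. List medians that kept their side of 0 in every alternative were those of lipogenesis, insulin signalling, endoplasmic reticulum stress, hypoxia, interferon, erythrocyte, endothelial and mammary genes. The replicate numbers correlated above 0.1 in 9 of 24 same-number pairs, and 5 of 16 libraries matched their own number best. With the replicate block the interaction called 0 genes, 144 had an unadjusted p under 0.05, diet called 4646 and 3214 responders lay within a 2-fold difference. Depth limits Kmo in the knockout, Capn11 and other genes near 1 CPM.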

Other observations

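Clock output genes split the HFD libraries of both genotypes in the same way. Dbp, a clock output factor, stood at 53.8 CPM in WT HFD replicate 1 and 42.5 CPM in KO HFD replicate 1, against 6.61 to 9.64 CPM in the other 6 HFD libraries and 127 to 170 CPM on chow. Arntl, the core activator that peaks opposite to Dbp, stood at 10.5 and 15 CPM in those 2 libraries and at 30.6 to 45.4 CPM in the other 6, with 2.24 to 9.69 CPM on chow. Nfil3, a repressor that also peaks opposite to Dbp, stood at 5.53 and 5.81 CPM in them and at 20.5 to 34.6 CPM in the other 6. Nr1d1 stood at 184 and 152 CPM in them and at 32.0 to 77.0 CPM in the other 6. The 2 libraries were picked out after these values were seen, the labels give no collection time, and no test was made. With 1 such library in each genotype, the interactions of Dbp and Arntl stood at -0.17 (SE 0.94) and 0.23 (SE 0.71).

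Errfi1, a feedback inhibitor of growth factor receptors in the glucocorticoid list, stood at 275 CPM in WT chow replicate 3 and at 16.8 to 51.1 CPM in the other 15 libraries, with an interaction of 1.87 (SE 0.96). Mt2, a metallothionein, stood at 8.21 CPM in KO chow replicate 2 and at most at 4.17 CPM elsewhere, with an interaction of -1.53 (SE 0.76), or -0.89 without that library. Mlana, a melanocyte marker, stood at 1.37 (SE 0.66) on levels of 0.242 to 2.17 CPM.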
